A study of Mus musculus with 6 samples.

Results

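The sarcomeric myosin heavy chain genes Myh4, Myh1, Myh2, Myh7, Myh3 and Myh8 were read in gastrocnemius muscle of aged mice that had or had not been fed farnesol. They are 6 of the 23238 gene symbols counted, taken by symbol and not by any measured value. All 6 were among the 11674 genes that passed the filter on low counts, and none stood on more than 1 line of the count tables. The farnesol group was 3 libraries from 26-month-old wild-type C57/BL6J mice given the sesquiterpene alcohol farnesol by mouth at 350 mg/kg for 30 days. The vehicle group was 3 libraries from mice of that age and genotype given saline with 5% DMSO over the same 30 days. Replicates are biological by their labels, but whether 1 mouse gave 1 library is not said, and every p-value here covers only the variation among these 6 libraries.

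Myosin heavy chain is the motor protein of the thick filament, and the isoform a fibre makes sets much of its speed of shortening. In rodent limb muscle Myh4 encodes the IIb chain of the fastest fibres, Myh1 the IIx chain, Myh2 the IIa chain of fast oxidative fibres and Myh7 the slow chain, which is also the beta chain of the heart. Myh3 and Myh8 encode the embryonic and the neonatal chain, which adult limb fibres replace with adult chains and which can return in regenerating fibres and stay in muscle spindles. In the GENCODE annotation of the mm10 build, 5 of the 6 genes stand on the plus strand of chromosome 11 in the order Myh3 (67078300 to 67102291), Myh2 (67171027 to 67197517), Myh1 (67200052 to 67224575), Myh4 (67238029 to 67260446) and Myh8 (67277124 to 67308634). Myh2 ends 2534 bases before Myh1 begins, and Myh1 ends 13453 bases before Myh4. Myh7 lies apart, on the minus strand of chromosome 14 (54970684 to 54994626).

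The 250 bases before the RefSeq start (GRCm38.p6, the assembly of mm10) of the 3 adult fast genes are shown because these genes gave most of the myosin counts and share a stretch of promoter. Capitals mark the longest run that all 3 hold, AATATTTCTAATTATATCCA.
Myh4 (chr11:67237562-67237811, plus strand): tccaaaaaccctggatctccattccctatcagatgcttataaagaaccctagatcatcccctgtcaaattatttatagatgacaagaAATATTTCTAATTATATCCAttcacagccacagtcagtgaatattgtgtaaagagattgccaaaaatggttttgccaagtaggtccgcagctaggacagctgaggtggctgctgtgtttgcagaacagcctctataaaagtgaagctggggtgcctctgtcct
Myh1 (chr11:67199852-67200101, plus strand): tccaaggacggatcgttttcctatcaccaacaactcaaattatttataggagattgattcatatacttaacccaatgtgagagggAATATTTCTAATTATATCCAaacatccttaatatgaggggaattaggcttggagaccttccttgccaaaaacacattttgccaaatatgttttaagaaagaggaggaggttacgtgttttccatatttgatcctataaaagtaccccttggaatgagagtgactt
Myh2 (chr11:67170777-67171026, plus strand): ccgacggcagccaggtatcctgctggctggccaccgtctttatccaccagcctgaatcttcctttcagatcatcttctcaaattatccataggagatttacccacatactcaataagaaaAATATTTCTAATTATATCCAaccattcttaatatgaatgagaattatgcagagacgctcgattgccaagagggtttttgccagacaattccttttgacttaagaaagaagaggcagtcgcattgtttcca
The run of 20 bases began 163 bases before the RefSeq start in Myh4, 165 in Myh1 and 130 in Myh2. The RefSeq start lay 217 bases before the GENCODE gene start in Myh4 and 50 bases after it in Myh1. The Myh1 window thus enters the GENCODE gene, and all distances here are from the RefSeq start. Searched on both strands, the run occurred in 3 of 32536 mouse promoter windows of this length (0.00922%), which are these 3. It was picked out from these promoters, so its rarity elsewhere is a description. Myh8, the next gene of the cluster, held the closest other window, 59 bases before its start and with 2 differences, shown here with the matching bases in capitals.
Myh8: AATAcTTCTAATTATATCCg
Only 4 of 32526 windows without an ambiguous base came within 2 differences of the run on either strand, and these 4 genes are those. The closest window differed at 7 bases in the Myh7 promoter and at 9 in that of Myh3. The letters TATAAA, the core of the TATA box, which 12.3% of promoters hold, stood 31 bases before the start of Myh4, 32 before that of Myh1 and 29 before that of Myh3. A match to the MEF2 site, bound by the MEF2 factors of muscle, was found in Myh4, Myh1 and Myh8 (2.89% of promoters), in each overlapping a TATAAA match. A CArG box, the site of serum response factor, was found in Myh4 alone of the 6 (1.48% of promoters).

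Each library held 9895700 to 12707751 counts. The 10 fibre markers checked, among them skeletal actin and muscle creatine kinase, were all above the filter, with a summed level of 172533 to 206422 CPM in farnesol and 147232 to 219056 CPM in vehicle libraries. CPM, the unit of levels here, is the count over the library total after trimmed-mean (TMM) scaling, times 1000000. Farnesol replicate 1 stood apart from the other libraries in its length trend and its ribosomal RNA. In it the level of a gene relative to its mean was lower for longer transcripts (Spearman -0.24 across 11244 genes, which are not independent replicates), against 0.02 to 0.10 elsewhere. The 45S ribosomal RNA precursor Rn45s took 4.97% of its counts, against 9.92% to 15.4% elsewhere. Vehicle replicate 3 was the lowest library for 7 of the 10 fibre markers, and farnesol replicate 1 for 3. In vehicle replicate 3 these markers averaged -0.38 in log2 CPM around the mean of the 6 libraries, against -0.08 to 0.20 elsewhere. The longest transcripts of the 6 genes are alike, at 6016 to 6230 bases, so length hardly enters the shares among them.

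Myh4 was by far the most abundant of the 6 genes in every library, and the 3 adult fast genes together made up 96.7% to 97.9% of the summed myosin heavy chain counts in farnesol libraries and 97.2% to 97.5% in vehicle libraries. Per kilobase of the longest transcript, the order of levels was Myh4, Myh1, Myh2, Myh8, Myh7 and Myh3. For a method that reads tags near the 3′ end this division is only a convention, and mean CPM gave the same order. Myh4 stood at 6990 to 10345 CPM per kb over the 6 libraries, Myh1 at 414 to 723, Myh2 at 377 to 642, Myh8 at 118 to 257, Myh7 at 29.6 to 74.7 and Myh3 at 10.4 to 23.7. Each gene exceeded the next in 6 of 6 libraries, except that Myh1 exceeded Myh2 in 4 of 6, so the order of Myh1 and Myh2 was within their spread.

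**Figure D1:**
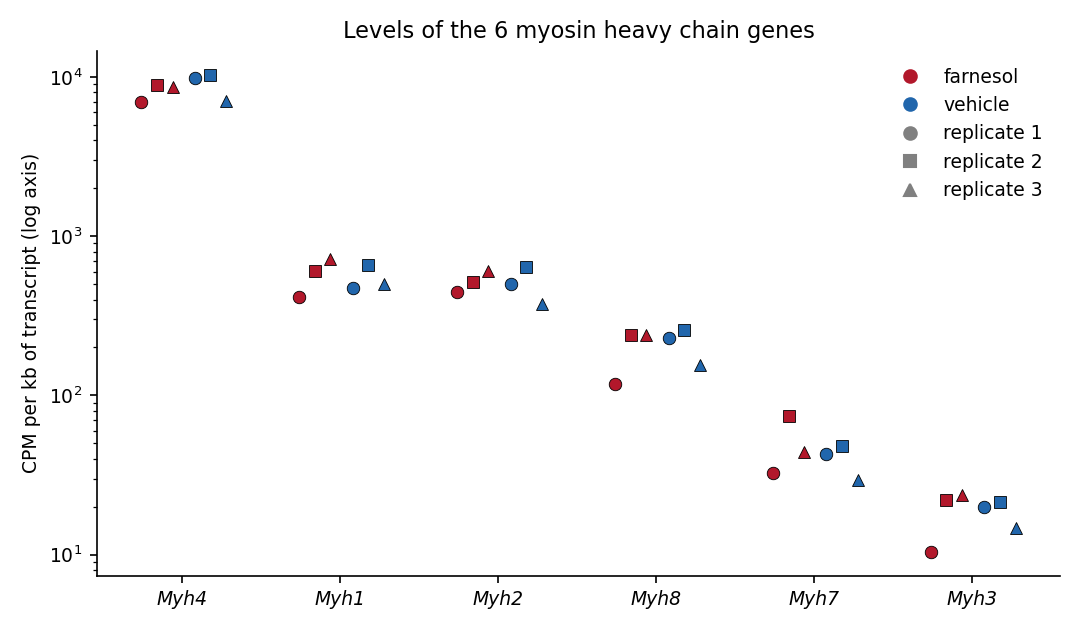
Level of each gene in CPM per kilobase of its longest transcript on a log axis, with farnesol libraries in red left of vehicle libraries in blue and a symbol for each replicate. Myh4 sits between 6990 and 10345 CPM per kb, and the ranges of Myh1 and Myh2 overlap.

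The comparison of farnesol with vehicle asked whether feeding went with a different level or mix of myosin isoforms in aged muscle, in a study whose title names muscle weakness in ageing. With edgeR's quasi-likelihood test, 0 of the 6 genes reached an adjusted p of 0.05, against 0% of the 11674 genes tested. None of the 6 had an unadjusted p under 0.05, against 3.01% of all genes tested. For none of the 6 did the CPM values of the groups separate, against 8.82% of all genes (4.75% with farnesol higher and 4.07% with it lower). Fitted log2 fold changes were above 0 for Myh1, Myh2 and Myh7, at 0.00 for Myh3 (-0.0004 with RLE scaling) and below 0 for Myh4 and Myh8, against 49.1% above and 50.9% below over all genes. DESeq2 and limma-voom also called 0 of the 6, adjusted or unadjusted. The 95% intervals of the fold reached down to 0.623 to 0.803 and up to 1.22 to 2.03. With 3 libraries a group, differences within the interval of each gene were therefore not excluded.

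Myh4 stood at 42054, 53831 and 51708 CPM in farnesol replicates 1 to 3, against 59679, 62237 and 42551 CPM in vehicle replicates 1 to 3. Farnesol replicate 1 and vehicle replicate 3 were the low libraries, and the groups overlapped. The fold was 0.897 (95% interval 0.661 to 1.22; log2 fold change -0.16, SE 0.21; edgeR adjusted p = 1.0). Myh1 was measured at 2516, 3680 and 4395 CPM in farnesol libraries and at 2881, 3990 and 3062 CPM in vehicle libraries, a fold of 1.07 (0.803 to 1.42). Its highest library was farnesol replicate 3 and its lowest farnesol replicate 1, so the farnesol libraries spanned the vehicle ones. Myh2 stood at 2730, 3158 and 3668 CPM with farnesol and at 3046, 3907 and 2294 CPM with vehicle, a fold of 1.03 (0.787 to 1.36), and here the vehicle libraries spanned the farnesol ones.

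Myh7, the slow chain, had the largest fitted difference of the 6, and it rested on 1 library. It was measured at 203, 465 and 275 CPM in farnesol replicates 1 to 3, against 268, 300.2 and 184 CPM in vehicle libraries. Farnesol replicate 2 lay far above the other 5 libraries, and farnesol replicate 1 was below vehicle replicates 1 and 2. The fold was 1.25 (95% interval 0.773 to 2.03; log2 fold change 0.33, SE 0.30). Without farnesol replicate 2 the log2 fold change was -0.07, and without farnesol replicate 1 it was 0.56 (unadjusted p = 0.0465, edgeR adjusted p = 1.0). Without vehicle replicate 3 it was 0.15.

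The genes of both developmental chains had counts in both groups, with Myh8 above Myh7 and Myh3 below Myh7 in 6 of 6 libraries. Myh8 stood at 727, 1464 and 1476 CPM in farnesol libraries and at 1403, 1579 and 959 CPM in vehicle libraries, a fold of 0.931 (0.623 to 1.39). Myh3 stood at 62.8, 133 and 143 CPM with farnesol and at 121, 129 and 88.8 CPM with vehicle, a fold of 1.0 (0.657 to 1.53). Both were lowest in farnesol replicate 1, and next lowest in vehicle replicate 3.

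**Figure D2:**
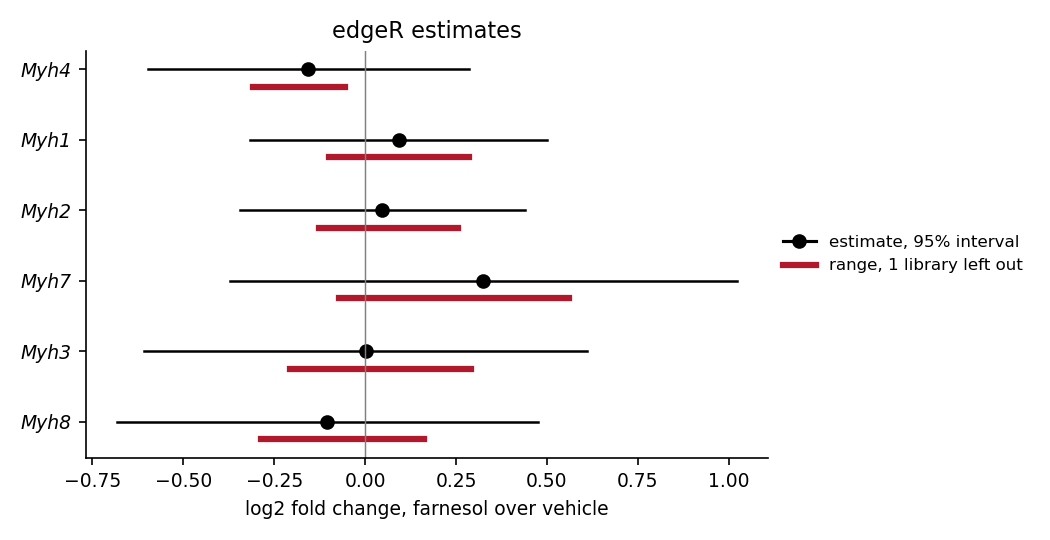
Log2 fold change of each gene, farnesol over vehicle, with its 95% interval in black and the range with 1 library left out in red. All 6 intervals include 0, and the red range of Myh7, from -0.07 to 0.56, is the widest.

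As shares of the summed counts of the 6 genes, which do not depend on how libraries are scaled, the mix differed by small amounts. Counting error on a share was at most 0.0933 percentage points for Myh4 and 0.0194 for Myh7 (from the centre of its 95% Wilson interval to a bound). The SD between libraries was 1.63 points in farnesol and 1.23 in vehicle for Myh4, and 0.179 in farnesol and 0.0205 in vehicle for Myh7. The 11 shares, ratios and sums each had an exact permutation test, two-sided, which with 3 against 3 libraries cannot give a p under 0.1 and so cannot reach 0.05 before or after adjustment. Myh4 took 87.1%, 85.8% and 83.9% of the myosin heavy chain counts in farnesol libraries and 88.5%, 86.3% and 86.6% in vehicle libraries, a difference of -1.56 percentage points (exact permutation p = 0.4). Farnesol replicate 3 held the lowest Myh4 share and vehicle replicate 1 the highest, with overlap between the groups. The difference was -0.69 points without farnesol replicate 3, -0.85 without vehicle replicate 1 and -2.30 without farnesol replicate 1. Myh1 took 5.21%, 5.87% and 7.13% with farnesol and 4.27%, 5.53% and 6.23% with vehicle (difference 0.72 points, exact permutation p = 0.5). This difference was 0.19 points without farnesol replicate 3 and likewise without vehicle replicate 1, 1.15 without farnesol replicate 1 and 1.17 without vehicle replicate 3. Myh2 took 5.65%, 5.03% and 5.95% with farnesol and 4.52%, 5.42% and 4.67% with vehicle (difference 0.68 points, exact permutation p = 0.2). The ratio of Myh2 to Myh4 was higher by 0.22 on the log2 scale after farnesol (-3.95 ± 0.14 in farnesol and -4.17 ± 0.15 in vehicle libraries, SD, n = 3 each; exact permutation p = 0.2), and that of Myh1 to Myh4 by 0.21 (exact permutation p = 0.5). For Myh1 to Myh4 it was 0.05 without vehicle replicate 1, 0.08 without farnesol replicate 3, 0.33 without farnesol replicate 1 and 0.34 without vehicle replicate 3.

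The share of Myh7 was the only one of the 6 whose groups did not overlap. It was 0.420%, 0.742% and 0.445% in farnesol libraries and 0.398%, 0.416% and 0.375% in vehicle libraries, a difference of 0.139 percentage points (exact permutation p = 0.1, the smallest this design allows). Farnesol replicate 1 and vehicle replicate 2 nearly touched, with 95% Wilson intervals of 0.403% to 0.438% and 0.401% to 0.431%. Without farnesol replicate 2 the difference was 0.036 points. On this scale 1 of the 6 genes was separated and higher with farnesol, against 4.56% of all genes tested, and 0 of 6 were separated and lower, against 1.26%. Myh7 relative to Myh4 was separated too (log2 ratio -7.37 ± 0.45 in farnesol and -7.78 ± 0.08 in vehicle libraries, SD, n = 3 each; exact permutation p = 0.1), with 5.33% of genes separated and higher on that scale and 1.07% separated and lower. That difference, 0.41, was 0.16 without farnesol replicate 2. Relative to Myh2 the groups overlapped (difference 0.20, exact permutation p = 1; -0.13 without farnesol replicate 2 and 0.36 without farnesol replicate 1 or 3).

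Myh8 took 1.51%, 2.33% and 2.39% of the counts with farnesol and 2.08%, 2.19% and 1.95% with vehicle (exact permutation p = 1). Myh3 took 0.130%, 0.213% and 0.232% with farnesol and 0.179%, 0.179% and 0.181% with vehicle (exact permutation p = 0.7). For both, the vehicle libraries lay close together and the farnesol libraries lay on both sides of them. The 6 genes together made up 5.36%, 5.90% and 6.04% of all counts in farnesol libraries and 6.36%, 6.52% and 5.60% in vehicle libraries, which overlapped (exact permutation p = 0.3). Per 1000000 counts the difference was -3955, -1912 without farnesol replicate 1, -2145 without vehicle replicate 2 and -6755 without vehicle replicate 3. In a bulk sample, fewer fibres of a type and less of its RNA per fibre cannot be told apart.

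**Figure D3:**
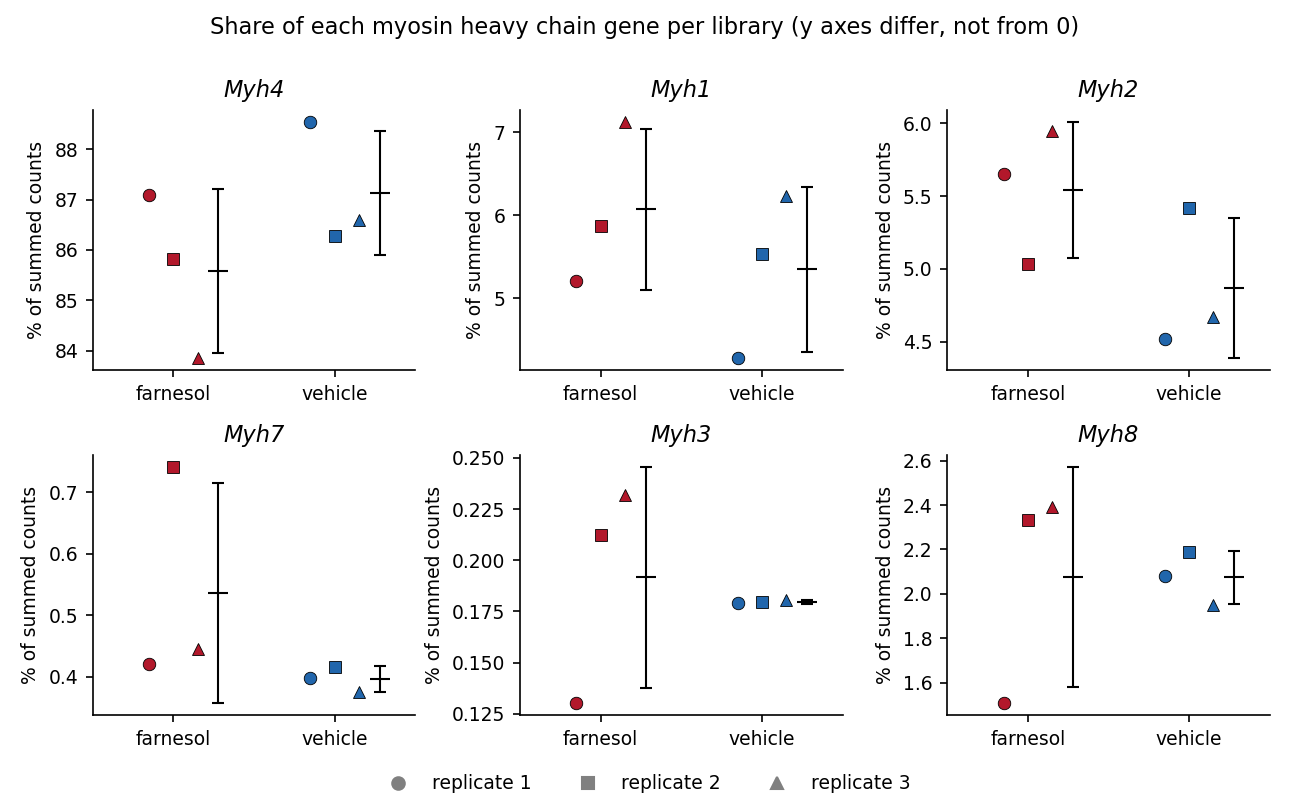
Share of each gene in the summed counts of the 6 genes, in percent, with a symbol for each replicate, farnesol left of vehicle, and bars for the mean and SD of 3 libraries; the y axes differ and do not start at 0. Only for Myh7 do the farnesol points all lie above the vehicle points, with farnesol replicate 2 at 0.742% and the others at 0.375% to 0.445%.

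Across the 6 libraries the genes moved together in part. In farnesol replicate 1 all 6 lay below their own mean, by 0.18 (Myh2) to 0.79 (Myh3) on the log2 CPM scale. Genes of 5000 to 7000 bases in transcript length had a median of -0.09 in that library (560 genes with at least 20 CPM). All 6 were below their mean in vehicle replicate 3 as well, where that median was 0.01. The 10 fibre markers averaged -0.38 on this scale in vehicle replicate 3 and -0.006 in farnesol replicate 1. The part of length or RNA quality in these low values was not tested beyond removing the length trend of each library, after which the log2 fold changes of the 6 genes were -0.12 (Myh4) to 0.36 (Myh7) (an alternative chosen after seeing the data). Myh3 and Myh8 had the most similar pattern of any pair. Myh8 had 10.3 to 12.2 times the counts of Myh3 in each library, a spread of 1.18-fold, whereas the ratio of Myh8 to Myh4 varied 1.65-fold, from 1.73% in farnesol replicate 1 to 2.85% in farnesol replicate 3.

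Pattern was compared by the mean absolute difference in log2 CPM after centring each gene over the 6 libraries, among 4127 named genes of at least 20 CPM. Closest to Myh4 were Homer1, Strbp and Ccdc80 (0.055 to 0.060), closest to Myh1 were Tulp4, Car3 and Crim1 (0.046 to 0.054), and closest to Myh2 were Ssx2ip, St3gal6 and Arhgef7 (0.065 to 0.073). Closest to Myh3 were Tmx3, Xiap and Ppfibp1 (0.080 to 0.12), although Myh8 was nearer than any of them at 0.071. Myh8 was most like Kcna7, Ttn and Irf2bp2 (0.083 to 0.091). Ttn encodes titin, the giant spring of the sarcomere, whose transcript is far longer than those of myosin. Closest to Myh7 were Ablim1, Idh2 and Tnnc1 (0.117 to 0.129), and Tnnc1 encodes the slow troponin C. These are likenesses over 6 libraries and 4127 genes, and carry no test.

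**Figure D4:**
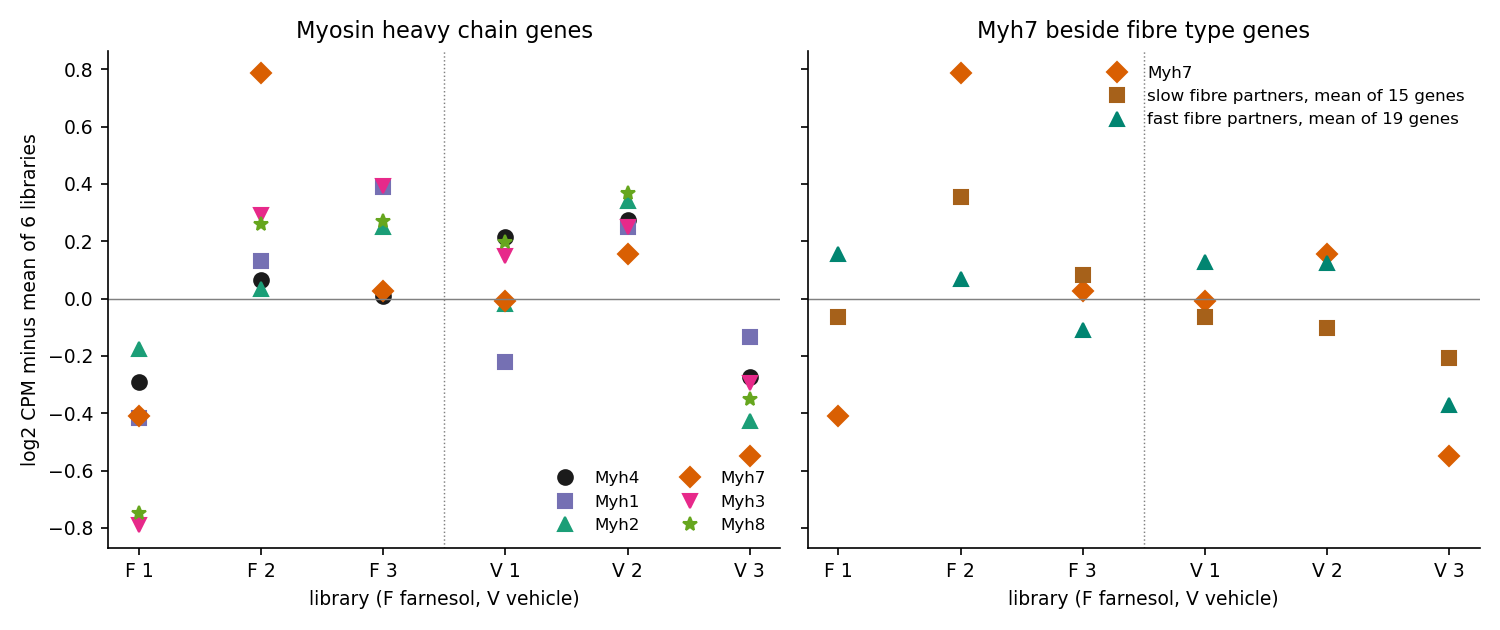
Log2 CPM of each gene in each library minus its mean over the 6 libraries (left), and Myh7 beside the mean of 15 slow fibre and 19 fast fibre partner genes (right), with farnesol libraries left of the dotted line. All 6 genes are below 0 in farnesol replicate 1 and vehicle replicate 3, and Myh7 and the slow partners are both highest in farnesol replicate 2.

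The partners of the slow chain were, like Myh7, highest in farnesol replicate 2. Of 15 slow fibre genes (slow troponins, light chains, calcium handling and myoglobin), 13 had a fitted log2 fold change above 0 and 2 below, with a median of 0.25, against -0.01 over all genes tested. In edgeR 0 of the 15 passed the adjusted threshold and 2, Sln and Myl2, had an unadjusted p under 0.05, against 3.01% of all genes. The mean of these 15 genes lay at -0.06, 0.35 and 0.08 in farnesol replicates 1 to 3 and at -0.06, -0.10 and -0.21 in vehicle libraries, on the log2 scale around the mean of all 6. Farnesol replicate 2 was the highest library for 9 of the 15 genes, while it was the highest for 14.7% of all genes tested. Without it the median was 0.07, with 10 higher and 5 lower. Myl2, the slow regulatory light chain, stood at 203, 260 and 170 CPM with farnesol and at 169, 171 and 129 CPM with vehicle (fold 1.35, 95% interval 1.05 to 1.72; not past the threshold over all genes). Sln, the sarcolipin that inhibits the calcium pump, stood at 19.5, 32.5 and 37.4 CPM with farnesol and at 18.3, 7.39 and 19.8 CPM with vehicle (fold 1.95, 1.19 to 3.21; adjusted p = 1.0 in edgeR). The groups overlapped for both. Mb, myoglobin, had a fold of 1.27 (0.998 to 1.61) and Fhl1, a LIM protein of the sarcomere, of 1.23 (0.995 to 1.52). Fhl1 stood at 368, 359 and 442 CPM with farnesol and at 327, 291 and 331 CPM with vehicle, without overlap. Of the 15 genes, 2 were separated and higher with farnesol, against 4.75% of all genes, and 0 were separated and lower, against 4.07%.

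The partners of the fast chains, 19 genes, had 14 members above 0 and 5 below, with a median log2 fold change of 0.07 and 0 past either threshold in edgeR. Vehicle replicate 3 was the lowest library for 16 of the 19, and without it the median was -0.07, with 4 higher and 15 lower. Without farnesol replicate 1 it was 0.00, with 10 higher and 9 lower. Tnnt3, the fast troponin T, had a fold of 1.21 (0.910 to 1.60), and Pvalb, the calcium buffer parvalbumin, also of 1.21 (0.864 to 1.70). Among 16 tested genes of the thick filament and its chaperones, 4 were above 0 and 12 below, with a median of -0.13 and 0 past either threshold; without farnesol replicate 1 they split 8 and 8. Trim63, the ubiquitin ligase MuRF1 that targets myosin heavy chain, had a fold of 0.771 (0.577 to 1.03), Hspb1, a small heat shock protein, of 0.840 (0.650 to 1.09), and Unc45b, the myosin chaperone, of 0.871 (0.705 to 1.08). The 22 tested factors that set fibre type split into 7 above and 15 below 0, with a median of -0.05 and 0 past either threshold. They split 10 and 12 when scaled by total counts, and 11 and 11 without farnesol replicate 1 or vehicle replicate 2. Eya1, a transcriptional coactivator, had a fold of 0.742 (0.514 to 1.07), Eya4, of the same family, of 0.667 (0.401 to 1.11), and Esrrg, an oestrogen-related receptor of oxidative fibres, of 1.31 (0.903 to 1.91). Eya4 was the 1 factor of the 22 whose groups did not overlap, lower with farnesol, against 4.07% of all genes. It stood at 3.17, 6.61 and 5.57 CPM in farnesol libraries and at 8.92, 6.68 and 7.46 CPM in vehicle libraries, and farnesol replicate 2 and vehicle replicate 2 nearly touched. The 16 tested genes listed under development and denervation, which need not all move the same way, numbered 6 above and 10 below. Their median was -0.10, with 0 past either threshold, and they numbered 9 above and 7 below without vehicle replicate 3. Among them Chrnd, the delta subunit of the acetylcholine receptor, had a fold of 2.02 with an interval of 0.752 to 5.45, Myl4, the light chain of embryonic muscle and atrium, a fold of 1.28 (0.712 to 2.28), and Ncam1, the adhesion molecule of denervated fibres, a fold of 0.907 (0.671 to 1.23).

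The remaining myosin heavy chain genes were minor. Of 8 listed, Myh15 was at 0 counts in all 6 libraries and the other 7 had together 231 to 355 CPM in farnesol and 295 to 348 CPM in vehicle libraries. Their fitted log2 fold changes were above 0 in 2 and below in 5, with a median of -0.08 and 0 past either threshold, and above 0 in 4 and below in 3 without farnesol replicate 1 or vehicle replicate 2, and above 0 in 1 and below in 6 without farnesol replicate 2. Myh13, the extraocular chain and the last gene of the chromosome 11 cluster, stood at 55.1, 97.8 and 102 CPM with farnesol and at 73.6, 129 and 67.0 CPM with vehicle. Myh6, the alpha chain of the heart, stood at 44.1, 74.5 and 56.7 CPM with farnesol and at 51.0, 62.0 and 44.8 CPM with vehicle, and was highest in the library where Myh7 was highest. Myh14, a nonmuscle chain, had a fold of 0.853 (0.651 to 1.12) and Myh11, of smooth muscle, of 0.838 (0.588 to 1.19).

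How far reads of one isoform can be told from another depends on their sequence, and the handling of reads with several matches is not stated. In exact windows of 50 bases, 19.2% of the Myh4 coding sequence occurs in at least 1 of the other 5 transcripts, as does 27.2% of Myh1, 27.9% of Myh2 and 21.0% of Myh8, but 3.79% of Myh3 and 0.226% of Myh7. Myh1 and Myh2 share most, 20.5% of windows, and Myh8 shares 9.85% with Myh4. Myh7 shares 23.8% of its coding windows with Myh6, and Myh6 had 16.0% to 24.3% as many counts as Myh7. The 3′ untranslated regions, which the 3′ tag method is designed to read, share no 50-base window among the 6 genes, but they are short, at 26 to 151 bases, and that of Myh7 is shorter than 1 window. The levels of the 6 genes, and of Myh13 and Myh6, are therefore uncertain, as are the shares and ratios built on them. Myh1 and Myh2 had far fewer counts than Myh4. What part of the Myh1 and Myh2 counts came from reads of Myh4, of each other or of Myh8 was not tested. What part of the Myh8, Myh3, Myh13 and Myh6 counts came from reads of Myh4, Myh1, Myh2 or Myh7 was not tested either. Nor was it tested what part of the Myh4 and Myh7 reads was dropped or counted under another gene, or came from one.

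**Figure D5:**
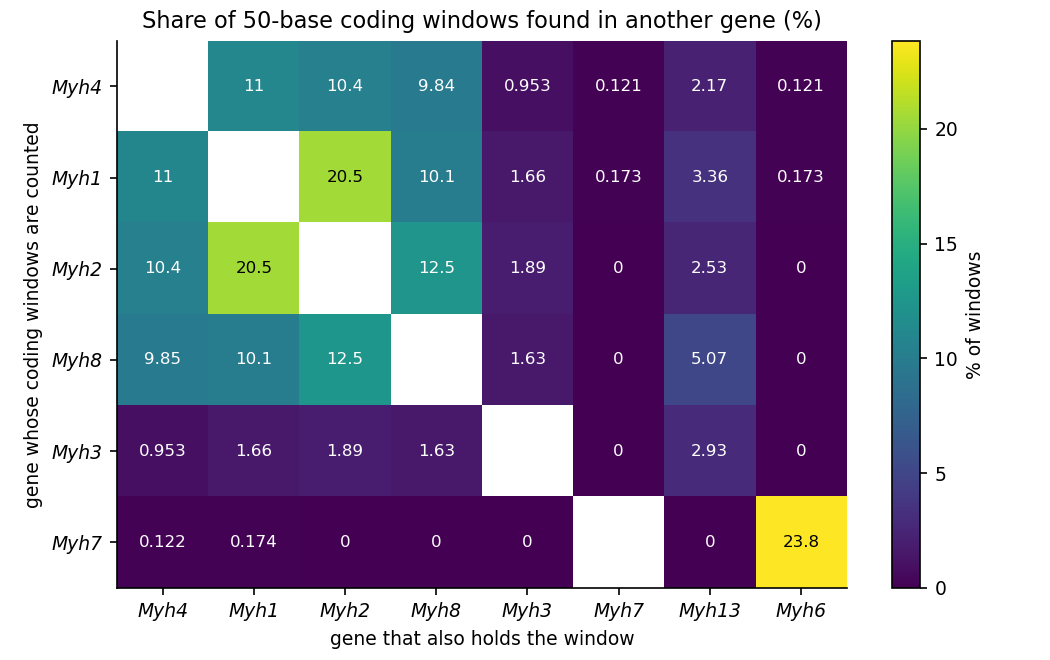
Percent of the 50-base windows in each gene's coding sequence (rows) that also occur exactly in a coding transcript of another myosin gene (columns). The adult fast genes and Myh8 share 9.84% to 20.5% of windows with each other, and Myh7 shares 23.8% with Myh6.

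Markers of other cells were read beside these values, as counts of tested genes with a fitted log2 fold change above 0. Adipocyte markers numbered 9 of 10, with a summed level of 2127 to 2624 CPM in farnesol and 1840 to 2269 CPM in vehicle libraries, and 7 of the 10 were highest in farnesol replicate 1. Most of this summed level was Car3, which averaged 1610 CPM over the 6 libraries and was also among the closest patterns to Myh1. Erythroid markers numbered 5 of 7, at 5472 to 9725 CPM in farnesol and 3501 to 5684 CPM in vehicle libraries. Macrophage markers numbered 1 of 9, at 128 to 174 CPM in farnesol and 104 to 242 CPM in vehicle libraries. They numbered 2 of 9 when scaled by total counts, 6 of 9 without vehicle replicate 3, the highest library for 8 of them, and 0 to 3 of 9 without any other single library. Satellite cell markers numbered 1 of 6, at 123 to 138 CPM in farnesol and 122 to 147 CPM in vehicle libraries. Most of that was Cd34 (mean 60.9 CPM in farnesol and 67.0 CPM in vehicle libraries) and Itga7 (37.4 and 33.6 CPM). The satellite cell markers numbered 3 of 6 without farnesol replicate 2 or vehicle replicate 2, and 2 of 6 without any other single library. Tendon markers numbered 3 of 7, and 5 of 7 when scaled by total counts, at 172 to 207 CPM in farnesol and 154 to 202 CPM in vehicle libraries. Schwann cell markers numbered 5 of 6, at 69.9 to 86.9 CPM in farnesol and 55.4 to 70.9 CPM in vehicle libraries. They numbered 4 of 6 without any single library other than vehicle replicate 3. Vascular smooth muscle markers numbered 2 of 5, at 1913 to 2597 CPM in farnesol and 2397 to 2844 CPM in vehicle libraries. Nearly all of that level was desmin, which fibres also make. The vascular markers numbered 1 of 5 without vehicle replicate 1 or 3, and 3 of 5 without vehicle replicate 2. None of these markers passed over all genes in edgeR, and 4 adipocyte, 4 erythroid, 1 macrophage and 1 Schwann marker had an unadjusted p under 0.05. That is 4 of 10 adipocyte, 4 of 7 erythroid, 1 of 9 macrophage and 1 of 6 Schwann markers, against 3.01% of all genes tested. No marker found in the tables was at 0 in every library. Their part in the myosin values was not tested.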

How the data were processed

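Total RNA (500 ng) of gastrocnemius went into Lexogen QuantSeq libraries, per the labels' protocols, a method that reads tags near the 3′ end of transcripts. The authors deposited 1 table of raw counts per library (whole numbers, no normalization), with 23282 features under 23238 symbols; 35 symbols on several lines were summed. The submitters' processing notes list Bowtie2, bedtools and mm10. Tool versions, annotation, strand and treatment of multiple matches: not given in the sources used here.

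Libraries were grouped by title (n = 3 each). Replicates 1 to 3 by title are the columns F2, F3 and F4 of farnesol and V1, V3 and V4 of vehicle. Replicate 1 therefore joins columns of unlike number. Counts were tested with edgeR 4.0.16 (R 4.3.3; filterByExpr, TMM, robust quasi-likelihood fit, Benjamini-Hochberg over 11674 genes, threshold 0.05), tested first on simulated data. The SE of a log2 fold change is its size divided by the root of the F statistic. limma 3.58.1 (voom), DESeq2 1.42.0, other scalings, filters, the replicate block and each library left out were alternatives. Log2 CPM used a prior count of 2, and log2 ratios added 0.5 to each count. Shares, sums and ratios were compared by exact permutation (scipy 1.17.1). Positions and transcripts are from GENCODE vM21 and promoters from RefSeq, both on the assembly of mm10. All 6 genes matched by symbol, but the RefSeq and GENCODE starts differed by 217 bases for Myh4 and 50 for Myh1. Where RefSeq gave 2 starts (Myh7), the one nearest the GENCODE start was used.

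Intervals on shares cover counting error only. Library pairs differed by far more than counting error (chi-square per degree of freedom of at least 12.9), so none was merged.

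Members, gene lists and tests were chosen with earlier results of these data known. Genes named are the 6 members, up to 4 genes per described list of smallest unadjusted p with at least 2 CPM, and the 3 closest patterns per member; Myh13, Myh6 and Myh15 were named after their values were seen. Of the list symbols, 3 were not matched in the tables.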

Additional observations from a re-analysis of the deposited data

How the results depend on the processing

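Over 204 combinations of a result and an alternative, 184 kept direction and side of the threshold, 18 changed sign and 2 moved a count. For shares, sums and ratios the side was fixed in advance, since their exact tests cannot reach 0.05, and only the sign could change. Their replicate block repeats the reported difference, so there the sign could not change either. The count of genes past an adjusted p of 0.05 over all genes, 0 in the reported fit, was 13 without the filter on low counts and 0 to 3 with 1 library left out (3 without vehicle replicate 2); none of the 6 genes was called in any fit. Without the filter, and without farnesol replicate 1, Myh7 alone of the 6 had an unadjusted p under the threshold. The log2 fold change of Myh3, near 0, was -0.0004 with RLE size factors, -0.0006 in DESeq2, -0.07 in limma-voom and -0.064 with the replicate block. With 1 library left out, log2 fold changes ran from -0.10 to 0.29 for Myh1, from -0.13 to 0.25 for Myh2, from -0.072 to 0.56 for Myh7, from -0.21 to 0.29 for Myh3, from -0.29 to 0.16 for Myh8 and, without a change of sign, from -0.31 to -0.06 for Myh4. Differences in share then ran from -0.0084 to 0.043 percentage points for Myh3 and from -0.154 to 0.290 for Myh8, and the log2 ratio of Myh7 to Myh2 from -0.13 to 0.36. The sign changed without farnesol replicate 2 for Myh7, Myh3, the Myh8 share and Myh7 to Myh2, without farnesol replicate 3 for Myh1, Myh2, Myh3 and the Myh3 and Myh8 shares, without farnesol replicate 1 for Myh8, without vehicle replicate 2 for Myh8, and without vehicle replicate 3 for Myh2, Myh3 and the Myh8 share; the cause was not tested. Libraries of the same title number had deviations correlated at -0.02 to 0.06, and farnesol replicate 3 was not closest to its own number. The numbers were therefore not taken to pair the libraries. The replicate block changed no call; under it the log2 fold change of Myh7 was 0.27 (edgeR adjusted p = 0.999) and the exact sign-flip p of the Myh7 share was 0.25, the smallest that 3 pairs allow. Average counts per library were 1213 for Myh3 to 560177 for Myh4.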

Other observations

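The long intergenic RNA 2310065F04Rik, annotated between Myh3 and Myh2 on the opposite strand and chosen after its values were seen, stood at 28.3, 18.1 and 21.2 CPM in farnesol libraries and at 18.6, 26.8 and 15.5 CPM in vehicle libraries. The groups overlapped (log2 fold change 0.15, SE 0.24 in edgeR). It was highest in farnesol replicate 1, where all 6 myosin heavy chain genes were below their mean. The ratio of titin to Myh4 counts was 1.24, 1.63 and 1.67 in farnesol libraries and 1.52, 1.55 and 1.47 in vehicle libraries, and farnesol replicate 1 was the lowest.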
